A study of Rattus norvegicus with 4 samples.

Results

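The genes described here are a set of 33 interferon-stimulated genes and interferon-pathway regulators, followed across 4 rat expression arrays. They were listed by name as known targets or regulators of interferon signalling; the rule uses no measured value, but the list was drawn up with earlier results of these data known. A probe set annotated to exactly 1 of these symbols was present for 31 of the 33 genes, among 14218 named genes on the array, and these 31 genes had 42 probe sets. Gbp5 and Xaf1 had no such probe set and are not analysed here. Smooth muscle cells cultured from the aorta of Sprague-Dawley rats had 3 days with serum, 3 days without and then 24 h of treatment. The IL-1b group received interleukin-1b, a cytokine of inflammation, at 2.5 ng/mL, and its vehicle group (the IL-1b control) received 0.1% bovine serum albumin (BSA) with 10 mM acetic acid. The PDGF-DD group received this platelet-derived growth factor at 30 ng/mL, and its vehicle group (the PDGF-DD control) received 0.01% BSA. No group received an interferon. All 4 groups consist of a single array, so differences have no replicate check and no p-value, and the number of arrays limits the precision.

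Interferons are secreted when a cell senses foreign nucleic acid. Type I interferons bind the receptor chains Ifnar1 and Ifnar2, the kinases Jak1 and Tyk2 are activated, and Stat2 and Irf9 enter a complex that binds the interferon-stimulated response element in promoters of antiviral genes. Interferon gamma acts through Ifngr1, Ifngr2, Jak1 and Jak2 on genes with gamma-activated sites, and interleukin-1 acts mainly through Myd88 and NF-kappaB. Vascular smooth muscle cells carry both kinds of interferon receptor and turn on antiviral and antigen presentation genes when exposed to interferon.

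The promoter sequences show what the set shares. A window of 250 bases before to 50 bases after the transcription start was available from RefSeq (build GRCr8) for 24 of the 33 genes. The response element core, GAAA, any 2 bases and GAAA, searched on both strands, was present in 16 of these 24 windows (66.7%) and in 3.92% of all 33469 rat windows of the same length. The gamma-activated site core TTCNNNGAA, which reads the same on both strands, was present in 7 of 24 (29.2%), against 8.87% of all windows. An NF-kappaB site form, GGG, any 2 bases and TTTCC on either strand, was present in 2 of 24 (8.33%), Gbp5 and Irf3, against 1.53%. A match to these letters is a description of the window and does not show binding. The stretches below run 5′ to 3′ on the gene's strand, end at the latest at the transcription start, and carry the match in capitals. The first 6 hold the response element core, with Isg20, Ifih1, Parp14 and Gbp2 standing for members seen on the arrays and Rsad2 and Ifit3 for members at the floor on every array.
Isg20 (chr1:142239947-142239996, plus strand): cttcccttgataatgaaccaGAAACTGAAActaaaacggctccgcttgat
Ifih1 (chr3:67683998-67684047, minus strand): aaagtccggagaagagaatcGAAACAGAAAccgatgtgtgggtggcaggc
Parp14 (chr11:78408038-78408087, plus strand): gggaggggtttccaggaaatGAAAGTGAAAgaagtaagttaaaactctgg
Gbp2 (chr2:234005676-234005725, plus strand): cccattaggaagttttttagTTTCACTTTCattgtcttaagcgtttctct
Rsad2 (chr6:48788238-48788287, minus strand): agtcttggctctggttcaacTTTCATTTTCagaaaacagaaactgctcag
Ifit3 (chr1:241527262-241527311, plus strand): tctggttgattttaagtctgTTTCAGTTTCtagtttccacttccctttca
The next pair hold the gamma-activated site core in the windows of 2 transcription factor genes, which lack the response element core.
Irf8 (chr19:65699084-65699132, plus strand): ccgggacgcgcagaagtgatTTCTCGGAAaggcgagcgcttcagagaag
Irf1 (chr10:38417773-38417821, plus strand): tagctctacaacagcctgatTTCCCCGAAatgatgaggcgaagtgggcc
The Parp14 stretch also holds a match to the gamma-activated site core, just ahead of the capitals, and the Irf8 stretch holds another match after its capitals.

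Intensities below are linear probe set values, rescaled to a common trimmed mean and given in the order IL-1b control, IL-1b, PDGF-DD control, PDGF-DD. A value of 28.1, the 40th percentile of all probe sets, served as the floor under which intensities have no order. Each gene is represented by its brightest probe set, and a difference was counted when it reached 2-fold. The arrays had 58.3% to 61.5% of their probe sets above the floor. All 8 smooth muscle markers examined were above the floor on the IL-1b control and 7 of 8 on each other array, but their level moved with the factors. With IL-1b 7 of 8 were lower by 2-fold or more (median log2 ratio -2.22) and with PDGF-DD 6 of 7 (median -2.76), and their summed intensities were 28035, 8589, 20166 and 4676. Of 13 leukocyte and macrophage markers, 9 were at the floor on all 4 arrays, among them Ptprc, Csf1r and Itgam; Cd14 was above it on all 4, and Lyz2, Adgre1 and Aif1 with IL-1b only. The defining T, B and NK cell markers were at the floor in 6 of 6 cases, and 5 of 7 endothelial markers, Pecam1 and Vwf included. Of 5 fibroblast markers 4, 5, 4 and 4 were above the floor, with sums of 2271, 7845, 1353 and 651, and 3 of 5 (Dpt, Pdgfra and Lum) exceeded the IL-1b control by 2-fold or more with IL-1b. The part of these marker shifts in the values below was not tested. Beta-actin probe sets at the 3′ and 5′ ends, whose ratio grows as RNA degrades, gave ratios of 1.58 and 2.05 in the IL-1b pair (control first) and 1.26 and 1.37 in the PDGF-DD pair.

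Most interferon-stimulated genes were above the floor without interferon, as were most named genes, and 4 were at the floor on every array. The floor is a percentile of all probe sets and not a detection call. Of the 31 genes, 22 (71.0%) were above the floor on all 4 arrays, against 64.5% of all named genes, and 4 were at the floor on all 4 (12.9%, against 23.4% of all named genes). These 4 were Ifit3, which acts with Ifit1 on foreign RNA; Oas1a, which makes the second messenger that activates RNase L; Rsad2 (viperin), an antiviral radical enzyme; and Dhx58, a regulator of RNA sensing. A further 5, Mx1, Mx2, Ifit1, Irf8 and Ifih1, were above the floor on some arrays only, so a ratio for them against an array at the floor is a lower bound. Mx1, a dynamin-like GTPase that blocks influenza viruses, was above the floor on the IL-1b control alone, at 51.3, at least 1.83-fold above its value with IL-1b. Mx2, its close relative, reached 28.8 on the PDGF-DD control and was under the floor elsewhere. Ifit1 was at 35.5 with IL-1b and 33.5 on the PDGF-DD control, and under the floor on the others. In bulk RNA of a culture, fewer cells expressing a gene and less RNA per cell cannot be told apart. Several of these genes belong to families of near-identical copies (Ifitm, Ifit, Oas and Gbp genes), and whether a probe set also binds a relative was not tested.

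**Figure D1:**
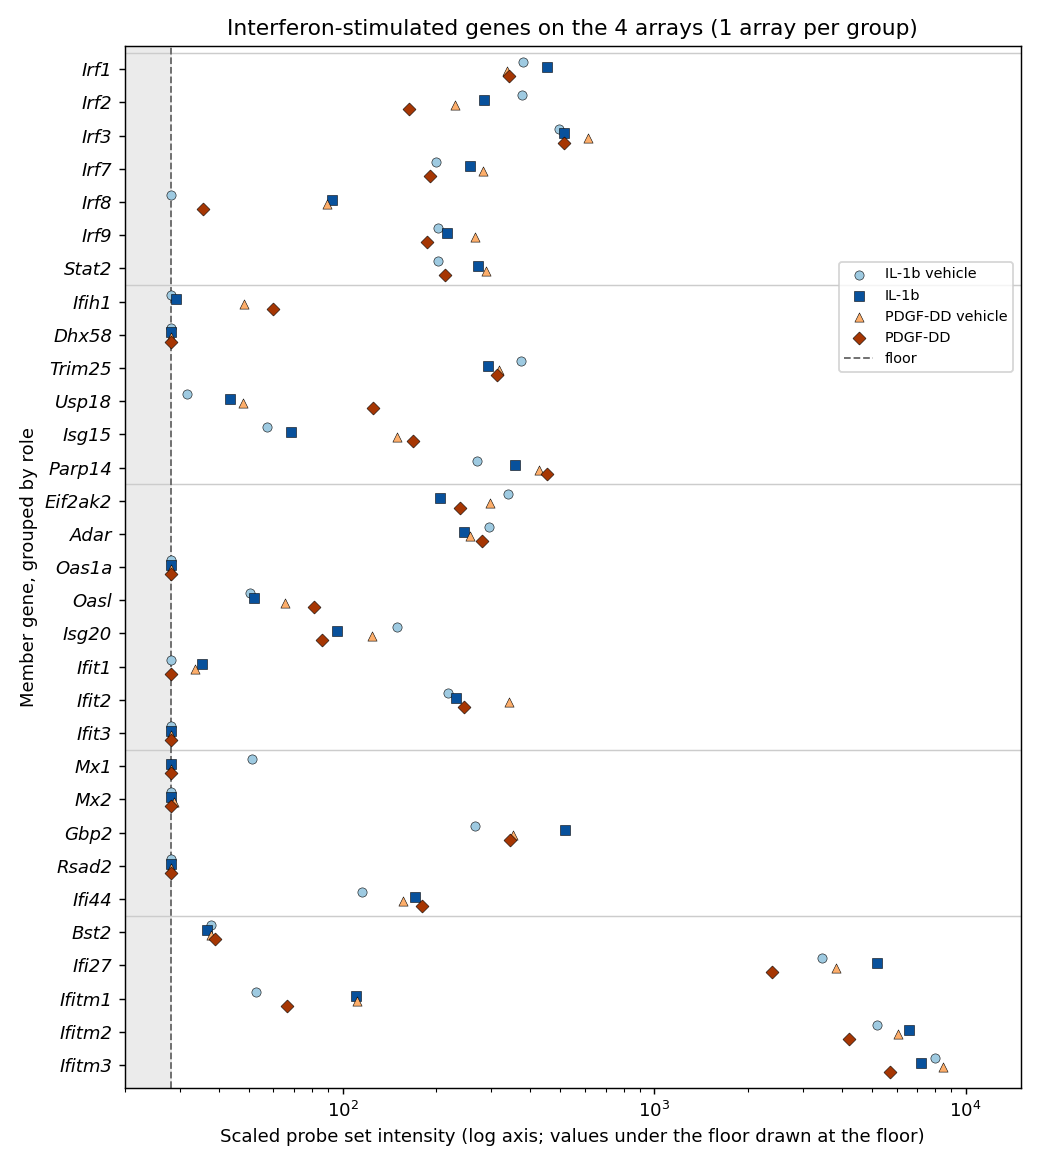
Scaled intensity (log axis) of the probe set standing for each of the 31 genes on the 4 arrays, 1 point per array, with genes grouped by role and values under the floor of 28.1 drawn at it. Dhx58, Oas1a, Ifit3 and Rsad2 lie at the floor on all 4 arrays, and most other genes have their 4 points within 2-fold of each other.

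With IL-1b, 2 of 26 measured members were at least 2-fold higher than with its vehicle and 0 were lower, 7.69% together; over all genes the share at least 2-fold apart was 11.6%, with 6.15% higher and 5.42% lower. The members' share was not above that of all genes. The members' median log2 ratio was 0.18 and that of all genes 0.025, and 20 of 26 members (76.9%) lay within 1.5-fold, as did 75.0% of all genes. The higher pair were Irf8, a transcription factor of the interferon regulatory factor family best known from macrophages and dendritic cells, and Ifitm1, a membrane protein that restricts virus entry. Neither met the rule when the IL-1b array was compared with the PDGF-DD control, where 0 of 26 members were higher and 1, Isg15, was lower, with 10.4% of all genes called (5.44% higher, 4.97% lower). The median of the members changed sign there, to -0.097.

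With PDGF-DD, 1 of 26 measured members was at least 2-fold higher than with its vehicle and 1 was lower, 7.69% together against 8.91% of all genes (4.24% higher, 4.67% lower). Usp18, the protease that removes Isg15 from proteins and restrains the type I interferon receptor, was the higher gene, and Irf8 the lower. The members' median log2 ratio was -0.26 beside 0.011 for all genes, and 17 of 26 members had a ratio below 0, 65.4% against 49.0% of all genes. Most of these differences were small, with 22 of 26 members within 1.5-fold. Of the 8 reference genes measured, 6 also had a ratio below 0 (75%, median -0.13). Against the IL-1b control, 3 of 25 members were higher with PDGF-DD (Isg15, Usp18 and Ifih1) and 1, Irf2, was lower, with 20% of all genes called (9.64% higher, 10.3% lower). The median was 0.047 there, so its sign depends on the control array.

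The control arrays, which had no factor, also differed from each other, in a share of these genes near that of all genes. Of 27 measured members 3 exceeded the IL-1b control by 2-fold or more on the PDGF-DD control (Isg15, Irf8 and Ifitm1) and 0 were lower, 11.1% together, where 10.5% of all genes were called (5.79% higher, 4.67% lower). Their median log2 ratio was 0.30, beside -0.048 for all genes, and 20 of 27 members had a ratio above 0 (74.1%, against 45.7% of all genes). Of the 8 reference genes measured, 6 also had a ratio above 0 (75%, median 0.19). The vehicles differ in composition, and the cultures may differ in other ways; these cannot be told apart. By probe set, 2 of 32, 2 of 32 and 4 of 33 measured probe sets of members were at least 2-fold apart with IL-1b, with PDGF-DD and between the controls, beside 11.2%, 8.39% and 10.3% of all probe sets.

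**Figure D2:**
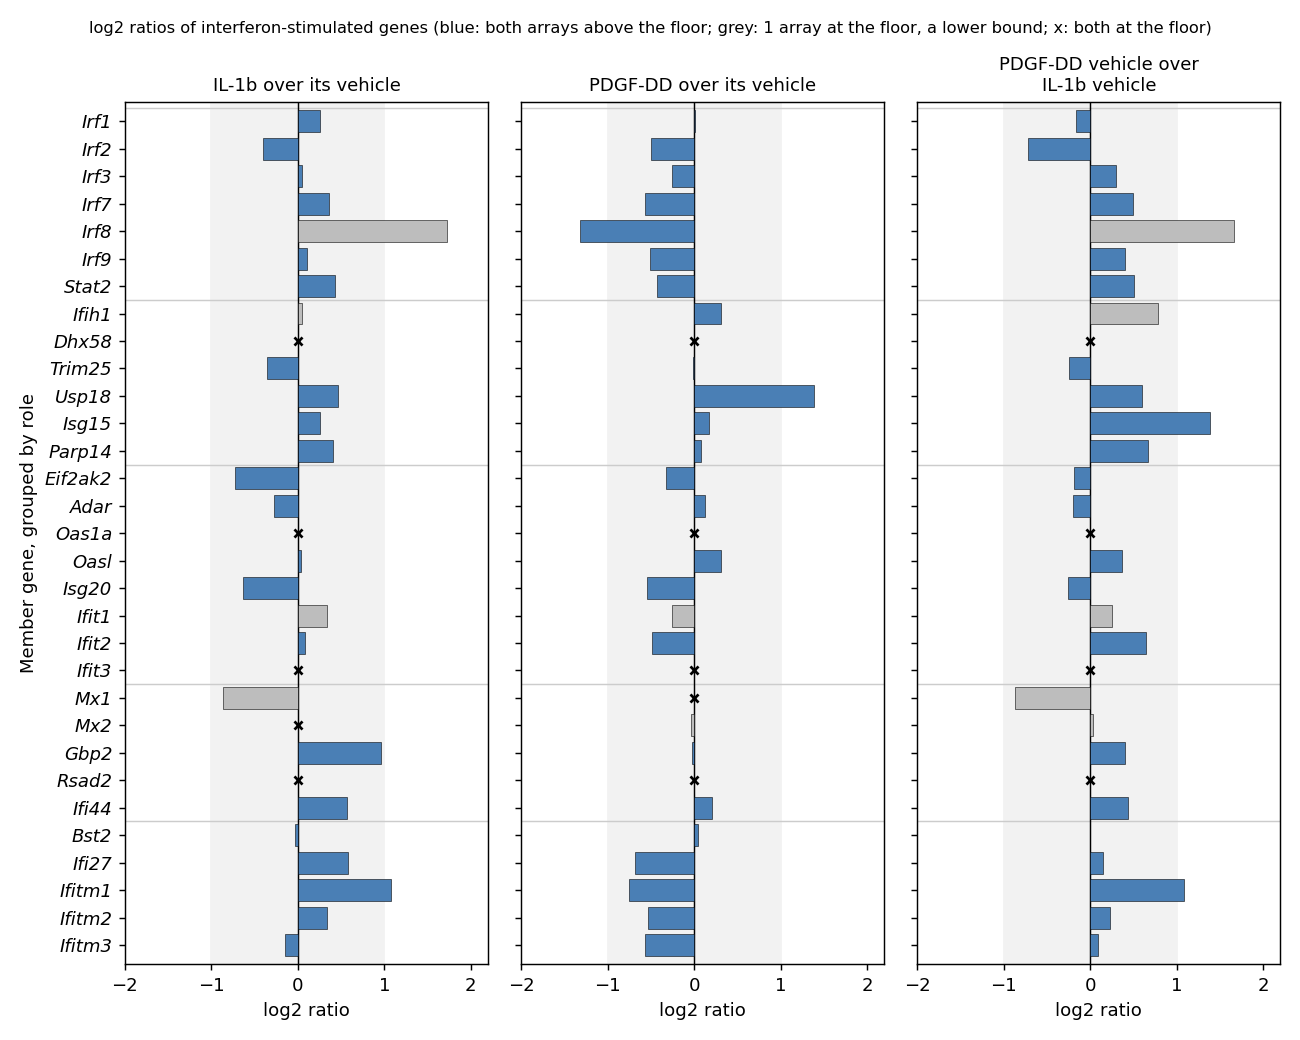
log2 ratio of each of the 31 genes for IL-1b over its vehicle, PDGF-DD over its vehicle and the PDGF-DD vehicle over the IL-1b vehicle, with the band of less than 2-fold shaded. Past the band lie Irf8 and Ifitm1 in the first panel, Usp18 and Irf8 in the second, and Irf8, Isg15 and Ifitm1 in the third.

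Among the transcription factors of the pathway, Irf8 stood apart from its relatives. Its intensities were 3.33, 92.6, 88.8 and 35.6, so it was under the floor on the IL-1b control, similar with IL-1b and on the PDGF-DD control, and lower with PDGF-DD. It was at least 3.3-fold higher with IL-1b than with its vehicle and 2.49-fold lower with PDGF-DD than with its vehicle, and the PDGF-DD control exceeded the IL-1b control at least 3.16-fold. Against the other vehicle array its log2 ratio was 0.06 for IL-1b and at least 0.34 for PDGF-DD. Its values are dim, and with the floor at the 50th percentile none of these ratios reached 2-fold. Of the leukocyte markers, Lyz2, a lysozyme of myeloid cells, had intensities of 28, 1305, 10.8 and 2.59, Adgre1 12, 41.7, 6.1 and 0.173, Aif1 25.2, 38.2, 8.68 and 26.4 and Cd14 1121, 1333, 1220.5 and 1117. The number of the 13 markers above the floor was 1, 4, 1 and 1, with summed intensities above the floor of 1121, 2717, 1220.5 and 1117. Their part in the Irf8 values was not tested.

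The remaining regulators differed by less than 2-fold from their vehicles. Irf1, an early factor that cytokines can induce, had intensities of 379, 453, 338 and 342. It was 1.19-fold higher with IL-1b and its PDGF-DD and vehicle values were nearly equal. Irf2, which competes with Irf1 for the same sites, had 377, 284, 230.0 and 163, the highest on the IL-1b control and the lowest with PDGF-DD, 1.33-fold and 1.41-fold lower than the respective vehicle. Against the IL-1b control Irf2 was 2.32-fold lower with PDGF-DD, and its other 2 probe sets did not exceed the floor on any array. Irf3, the factor activated by viral sensors, stayed between 496 and 612.

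Irf7, the factor that amplifies type I interferon production, had intensities of 199.7, 257, 281 and 191. Irf9, the DNA-binding part of the type I complex, had 202, 217, 266 and 187, and its partner Stat2 had 203, 273, 288 and 214. By these probe sets all 3 were highest on the PDGF-DD control, and 1.48-fold, 1.43-fold and 1.35-fold lower with PDGF-DD. The second probe sets of Irf9 and Stat2 gave log2 ratios of -0.46 and -0.32 for PDGF-DD, and 0.085 and 0.53 for IL-1b. These have the same signs as the brighter probe sets, but both second probe sets were highest with IL-1b, at 173 and 187, not on the PDGF-DD control. In the vehicle comparison the Stat2 probe sets differed, at 0.51 and -0.018.

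Among sensors and signal regulators, Isg15 differed between the pairs of arrays and its protease Usp18 was highest with PDGF-DD. Isg15, a ubiquitin-like protein joined to other proteins after interferon exposure, had intensities of 57.2, 68.3, 149 and 168. Both arrays of the PDGF-DD pair were above both arrays of the IL-1b pair, by 2.19-fold at the nearest values, while each factor differed little from its vehicle (1.19-fold and 1.13-fold higher). Usp18 had intensities of 31.6, 43.6, 47.8 and 125, highest with PDGF-DD. It was 2.62-fold higher with PDGF-DD than with its vehicle and 3.95-fold higher than on the IL-1b control, so it met the rule against both, and 1.38-fold higher with IL-1b.

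Other genes of this group also sat higher in the PDGF-DD pair. Ifih1 (Mda5), a cytosolic sensor of double-stranded RNA, had 7.03, 29.1, 48.3 and 60.0, under the floor on the IL-1b control and just above it with IL-1b. Parp14, an ADP-ribosyltransferase, had 269.7, 357, 428 and 452, and its second probe set had 85.2, 152, 212 and 259. That second probe set was 2.49-fold higher on the PDGF-DD control than on the IL-1b control, against 1.59-fold for the brighter one. Trim25, a ubiquitin ligase that activates RNA sensing, had 375, 293, 317 and 314, highest on the IL-1b control.

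Counted over the set, 7 of 27 members (25.9%) had both PDGF-DD pair arrays above both IL-1b pair arrays: Isg15, Ifih1, Usp18, Parp14, Oasl, Ifit2 and Bst2. Over all genes 19.1% showed this order, and 25.3% the reverse order, which 2 of 27 members (7.41%), Irf1 and Irf2, showed. By at least 2-fold at the nearest values, Isg15 alone among the 27 did so, where 1.68% of all genes did, and 0 members showed the reverse by that much (0.634% of all genes). The gap was 0.0021 on the log2 scale for Bst2 and 0.080 for Ifit2, so the count rests in part on very small gaps. With the floor at the 50th percentile it was 4 of 23 members (17.4%, against 20.3% of all genes). This comparison of the pairs was chosen after the values were seen, and the beta-actin ratio given above was also lower on both arrays of the PDGF-DD pair; its part in these values was not tested.

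None of the 6 measured effectors that act on RNA met the 2-fold rule against its vehicle or between the controls. Of all genes 11.6% did so with IL-1b, 8.91% with PDGF-DD and 10.5% between the controls. Over so few genes a count of 0 is near those shares. For Ifit1 the ratio with IL-1b is a lower bound, at least 1.26-fold, and with the floor at the 30th percentile it was at least 1.07 on the log2 scale; Ifit3 and Oas1a were not measured. Eif2ak2 (PKR), a kinase that halts translation on binding double-stranded RNA, had intensities of 340.3, 206, 298 and 237. It was 1.65-fold lower with IL-1b and 1.26-fold lower with PDGF-DD. Isg20, an RNA exonuclease, had 149, 96.2, 125 and 85.9 and was lower with both factors, by 1.55-fold with IL-1b and 1.45-fold with PDGF-DD. Both values of Isg20 with a factor were thus below both values without one. Eif2ak2, Ifitm3 and Trim25 showed the same order and Ifi44 the reverse. The share of all genes with such an order was not counted. Oasl, a relative of the 2′-5′ oligoadenylate synthetases, had 50.6, 51.8, 65.2 and 80.7, highest with PDGF-DD.

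Ifit2, an RNA-binding protein of the Ifit family, had 218, 232, 342 and 245, highest on the PDGF-DD control. Its second probe set had 145, 156, 277 and 182, the same order of arrays. For Adar, the enzyme that edits adenosine to inosine in RNA, the brightest probe set had 296, 245, 257 and 281, a spread of 1.21-fold over the 4 arrays. The 3 Adar probe sets disagreed in sign for IL-1b, with log2 ratios of -0.27, 0.23 and 0.77, and none reached 2-fold.

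Among the GTPases and related proteins, Gbp2, a guanylate-binding GTPase that is strongly induced by interferon gamma, had intensities of 266, 519, 352 and 345, highest with IL-1b, at 1.95-fold over its vehicle and 1.47-fold over the PDGF-DD control. With PDGF-DD it was level with its vehicle. Ifi44, an interferon-induced cytoplasmic protein, had 115, 170.3, 156 and 180.1, lowest on the IL-1b control.

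The Ifitm proteins sit in cell membranes and hinder the fusion of viruses. Ifitm1 had intensities of 52.7, 111, 111 and 66.4, with the IL-1b array and the PDGF-DD control nearly equal and both above the other arrays. It was 2.1-fold higher with IL-1b and 1.68-fold lower with PDGF-DD. When 16 was added to each value in place of a floor, the log2 ratio of Ifitm1 with IL-1b was 0.88, under 2-fold. Ifitm2 had 5189, 6578, 6067 and 4211 and Ifitm3 had 7949, 7192, 8463 and 5715, both lowest with PDGF-DD, at 1.44-fold and 1.48-fold below its vehicle, and within 1.27-fold of the vehicle with IL-1b.

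Ifi27, a small membrane protein, had 3471, 5201, 3833 and 2391, highest with IL-1b and lowest with PDGF-DD. It was 1.5-fold higher with IL-1b and 1.6-fold lower with PDGF-DD. Bst2 (tetherin), which holds budding viruses at the cell surface, had 37.7, 36.8, 37.8 and 39.1 and barely varied, close above the floor.

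Set against each other, the factors differed by at least 2-fold in their log2 ratios for 3 of 27 members, each higher for IL-1b, and for 0 the other way (11.1%, against 15% of all genes, 8.3% higher and 6.7% lower for IL-1b). The difference of log2 ratios was at least 3.04 for Irf8, 1.82 for Ifitm1 and 1.26 for Ifi27. This difference includes the log2 ratio of the PDGF-DD vehicle over the IL-1b vehicle. That ratio was at least 1.66 for Irf8, 1.08 for Ifitm1 and 0.14 for Ifi27. Gbp2, at 0.99, was just inside the 2-fold limit, and Usp18, at -0.93, was the farthest the other way.

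**Figure D3:**
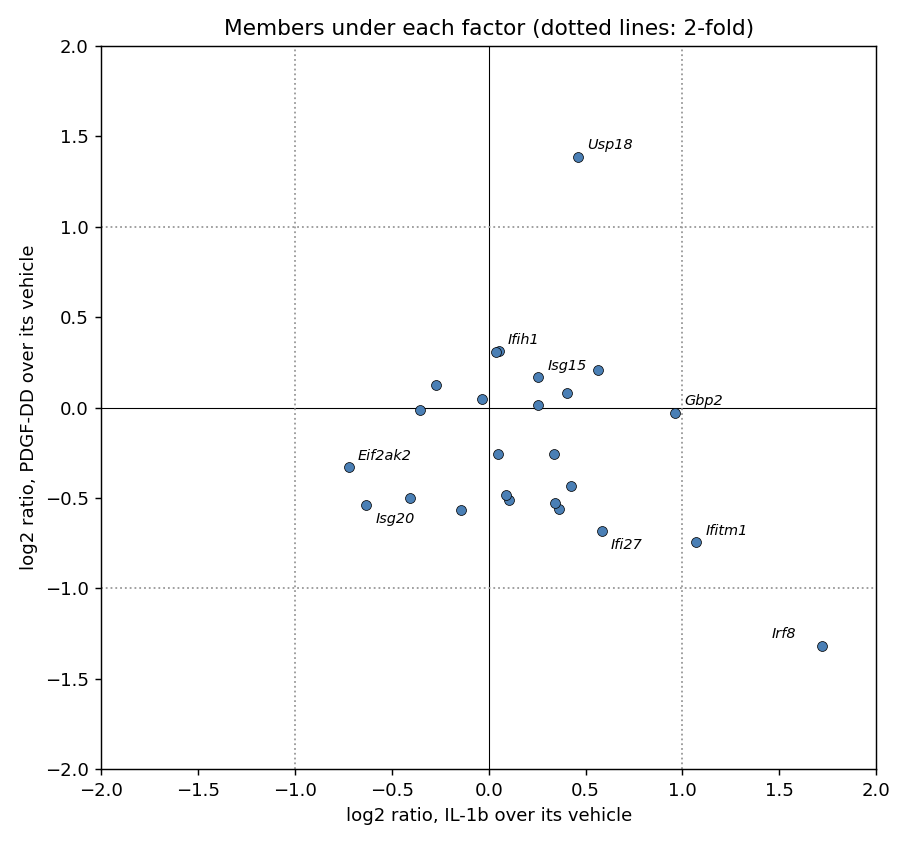
log2 ratio of the members under IL-1b (horizontal) and PDGF-DD (vertical), each against its own vehicle, 1 point per gene measured in both comparisons, with dotted lines at 2-fold. Irf8 lies past 2-fold in opposite directions on the axes, Usp18 past it for PDGF-DD and Ifitm1 for IL-1b.

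Of the 16 genes with the response element core in their promoter window 11 were measured, and 0 of 11 were at least 2-fold apart with IL-1b, with PDGF-DD or between the vehicles, where 11.6%, 8.91% and 10.5% of all genes were. Over so few genes a count of 0 is near those shares. Their median log2 ratios were 0.34, -0.33 and 0.23 in these comparisons. Among the 8 genes with a window but no match, Irf8 was at least 2-fold apart in each comparison. Ifitm1, Usp18 and Isg15 had no window in the RefSeq table.

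The other parts of the interferon pathway were examined as lists. Among the ligands, Ifnb1, Ifng and Ifnk, the interferon genes of the list with a probe set, were at the floor on all 4 arrays, as was Socs1, a feedback inhibitor. Of 16 measured genes of interferon signalling, 4 exceeded their control by 2-fold or more with IL-1b and 0 were lower (25%, median log2 ratio 0.64), beside 11.6% of all genes called, 6.15% higher, and a median of 0.025. They were Socs3, an inhibitor of cytokine receptor signalling (17.7, 167, 106 and 100.2), the kinase Jak2 (66.2, 258, 188 and 142), and the interferon gamma receptor chains Ifngr1 (969, 2178, 1337 and 688) and Ifngr2 (412, 864, 648 and 437). All 4 genes were highest with IL-1b. Socs3 was at least 5.94-fold, Jak2 3.9-fold, Ifngr1 2.25-fold and Ifngr2 2.1-fold higher with IL-1b than with its vehicle.

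None of these 4 reached 2-fold against the PDGF-DD control, where their log2 ratios were 0.66, 0.46, 0.70 and 0.42, and the second probe set of Ifngr2 gave 0.86 against the IL-1b vehicle. With PDGF-DD, 0 of 15 measured signalling genes were at least 2-fold apart (8.91% of all genes). Ratios below 0 were seen in 13 of 15 (median -0.31), in 49.0% of all genes and in 6 of 8 reference genes. Between the vehicles 3 of 15 were higher on the PDGF-DD control, namely Socs3, Jak2 and Stat3, where 5.79% of all genes were. Stat3 passed narrowly (2.01-fold), and its second probe set gave 1.26-fold. The type I receptor chain Ifnar1 had intensities of 215, 247, 207 and 167 and Ifnar2 had 253, 432, 382 and 260.1. The probe sets of Ifnar1 differed in sign between the vehicles, with log2 ratios from -0.38 to 0.57. The second probe set of Ifnar2 was 1.14-fold higher with IL-1b, against 1.7-fold for the brighter one, and was highest on the PDGF-DD control. The kinases Jak1 (1643, 1658, 1810.0 and 1728) and Tyk2 (218, 206, 196 and 167) varied little. In nucleic acid sensing, 0 of 8 measured genes were at least 2-fold apart with IL-1b and 0 of 7 with PDGF-DD. Between the vehicles 0 of 8 were. Of all genes 11.6%, 8.91% and 10.5% were, and over so few genes these counts are near those shares. Ticam1, the adaptor of Tlr3, was 1.92-fold higher with IL-1b. For Mavs, a gene of the same list, the second probe set was 2.04-fold lower with IL-1b. The brighter one, which was counted, was 1.06-fold lower.

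Among 48 further interferon-induced genes measured with IL-1b, 9 were at least 2-fold higher and 1 was lower (20.8%, against 11.6% of all genes). Ube2l6, the enzyme that conjugates Isg15, had intensities of 90.1, 656, 446 and 401 and was 7.28-fold higher. Ciita, the master regulator of MHC class II genes, had 22.7, 167, 86.1 and 51.9, at least 5.94-fold higher. Plscr1, a phospholipid scramblase, had 269.6, 1215, 804 and 1484 and was 4.51-fold higher with IL-1b. All 3 were also higher by 2-fold or more on the PDGF-DD control than on the IL-1b control. The second probe set of Ciita gave a log2 ratio of only 0.39 there, and 1.42 with IL-1b. Over the PDGF-DD control, Ube2l6, Ciita and Plscr1 were 1.47-fold, 1.94-fold and 1.51-fold higher with IL-1b. By its second probe set Ciita was 2.05-fold higher in that comparison. Il15, a cytokine that supports natural killer and T cells, was the lower gene with 308, 32.8, 76.5 and 34.7, 9.38-fold below its vehicle. It was also lower with PDGF-DD, by 2.2-fold, and lower on the PDGF-DD vehicle than on the IL-1b control. Over the whole list the count depended on the control array. Against the PDGF-DD control 1 of 51 genes was higher with IL-1b and 3 were lower (7.84%, against 10.4% of all genes). Between the controls, which had no factor, 8 of 48 were higher on the PDGF-DD control and 1 was lower (18.8%, against 10.5%).

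With PDGF-DD, 2 of 49 genes of that list were at least 2-fold higher and 3 lower (10.2%, against 8.91% of all genes). Slfn4, a Schlafen family gene, had 110.2, 134, 302 and 956 and was 3.17-fold higher, and Ifi27l2b, a relative of Ifi27, had 7.96, 89.5, 55.8 and 134. Trim34 (268, 245, 271 and 114) and Rtp4 (63.6, 82.5, 106 and 47.4) were 2.38-fold and 2.23-fold lower. The chemokine Cxcl10, a common interferon readout, had 6.85, 23.4, 68.1 and 100.1, under the floor on both arrays of the IL-1b pair. On the PDGF-DD control it exceeded the IL-1b control at least 2.43-fold, and it was 1.47-fold higher with PDGF-DD than with its vehicle.

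For scale, IL-1b gave 9 of 12 NF-kappaB feedback and target genes a level 2-fold higher or more and 0 a lower one, with a median log2 ratio of 2.61 beside the 0.18 of the interferon-stimulated genes. Il6 had intensities of 16.1, 3645, 445 and 324 and the inhibitor Nfkbia had 264, 1734, 619.9 and 346, both highest with IL-1b. With PDGF-DD 0 of 12 were higher and 3 lower (median -0.65), where 8.91% of all genes were called. On the PDGF-DD control 8 of 12 were higher and 1 lower than on the IL-1b control (median 1.28), where 10.5% of all genes were called. Reference genes had medians of 0.24 with IL-1b, -0.13 with PDGF-DD and 0.19 between the controls. In each of these comparisons 0 of 8 were at least 2-fold apart by their brightest probe sets. A dimmer probe set of the reference gene Pgk1 was 2.19-fold higher on the PDGF-DD control than on the IL-1b control, against 1.3-fold for the brightest.

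**Figure D4:**
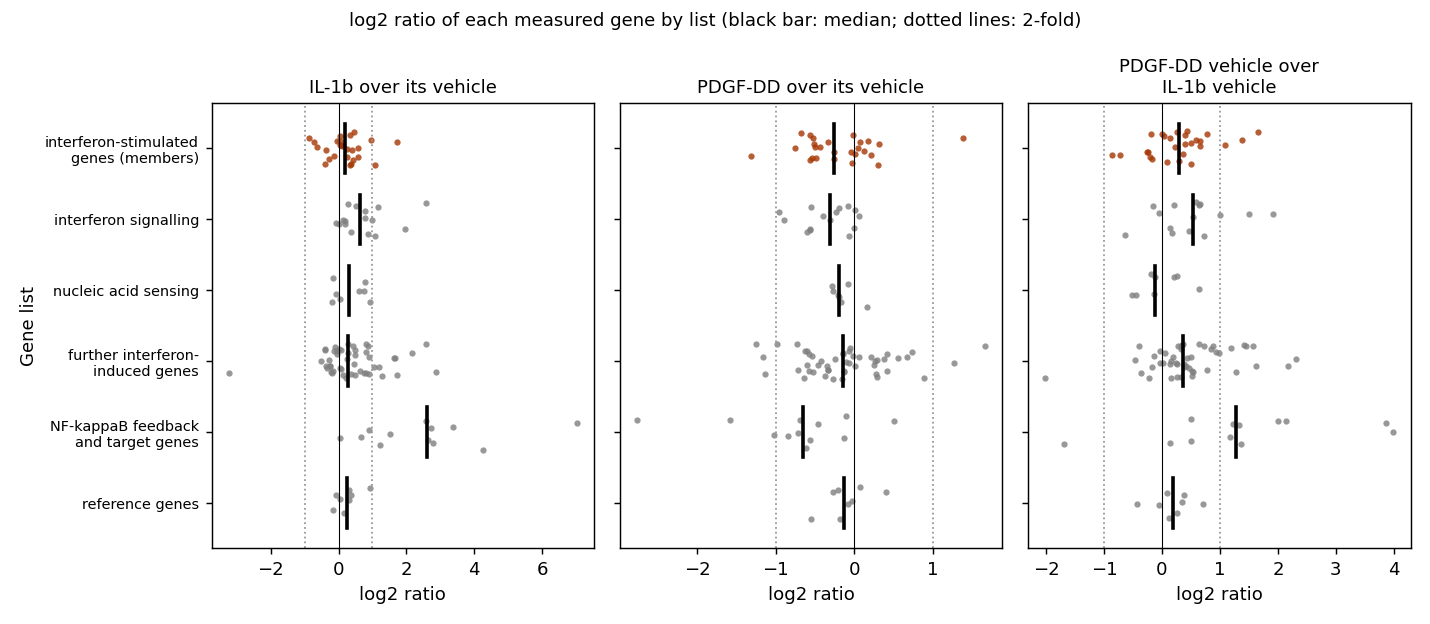
log2 ratio of each measured gene by list in the same 3 comparisons, 1 point per gene, black bars at the median and dotted lines at 2-fold; the horizontal ranges differ between panels. With IL-1b the NF-kappaB list has a median of 2.61 while the members have 0.18 and the signalling genes 0.64.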

How the data were processed

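The 4 arrays carry 31099 probe sets each. The deposited values are linear intensities, for which the submitters' processing notes name MAS5; neither version nor scaling target is given in the sources used here, and all 4 deposited columns have a median of 53.3. The members and lists were chosen with earlier results of these data known. Each array was rescaled to a common mean after trimming 2% of probe sets at each end, which multiplied the IL-1b pair by 1.03 (control) and 1.01 and the PDGF-DD pair by 1.01 (control) and 0.951. Values under the 40th percentile of all arrays pooled were set to it before log2. Detection calls were not used here.

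Names came from a platform annotation. It gives 1 symbol for 20832 probe sets and several for 436, and 9831 are unnamed here; 20764 matched a GRCr8 RefSeq gene. A gene was measured when above the floor on at least 1 array compared. All members may be named; of other lists, the rule names the 4 largest ratios per comparison plus pathway components of prior interest. With 1 array per group no test was run. The steps were tested on simulated data. Alternatives were the scaling, floor, probe set choice, fold and control array. Python 3.11.15, numpy 2.4.6, pandas 2.3.3 and matplotlib 3.10.9 were used.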

Additional observations from a re-analysis of the deposited data

Results flagged for a closer look

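The log2 ratio with IL-1b and that with PDGF-DD, each against its own vehicle, had opposite signs and differed by at least 2-fold for 3 members. Such a difference includes the gap between the vehicle arrays. The log2 ratio of the PDGF-DD vehicle over the IL-1b vehicle was at least 1.66 for Irf8, 1.08 for Ifitm1 and 0.14 for Ifi27. For Irf8 the difference of log2 ratios was at least 3.04, from at least 1.72 with IL-1b to -1.32 with PDGF-DD. For Ifitm1 it was 1.82, from 1.07 to -0.75. For Ifi27 it was 1.26, from 0.58 to -0.68. With 1 array per group these differences were not tested. Differences of at least 2-fold between the factors, in either direction and whatever the signs, were seen in 11.1% of members and 15% of all genes.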

How the results depend on the processing

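Of 771 values of single members under the alternatives, 727 kept their side of the limit. Of the others 35 passed it, 6 fell short of it and 3 reversed. Of the 35, 20 passed only because the limit was lowered to 1.5-fold. Members no longer measured under a setting are not among the 771. A change of sign was counted as a reversal only where the limit was met under either setting compared. Changes of sign inside the limit are among the 727. With the other vehicle array as control, the IL-1b log2 ratio of Irf2 went from -0.41 to 0.31. That of Irf7 went from 0.36 to -0.13. The 3 reversals came with the other vehicle array as control: Isg15 (-1.13) and Ifitm1 (-0.0087) for IL-1b, and Irf8 (0.34) for PDGF-DD. That setting gave 0 of 26 members higher and 1 lower for IL-1b, beside 5.44% and 4.97% of all genes. It gave 3 of 25 higher for PDGF-DD, beside 9.64% of all genes. In the counts below the share of all genes stands in brackets. With the floor at the 30th percentile 1 of 29 members was lower for IL-1b (6.04%). The same floor gave 1 of 30 lower between the vehicles (5.62%) and 1 of 31 in the difference between factors (7.18%). At the 50th percentile 1 of 20 was higher for IL-1b (5.75%). There 0 of 23 were lower for PDGF-DD (4.22%) and 1 of 23 was lower in the difference (6.34%). With 16 added in place of a floor 1 of 26 was higher for IL-1b (6.51%). That setting gave 1 of 27 lower between the vehicles (4.58%) and 1 of 27 lower in the difference (6.6%). A 1.5-fold limit gave 3 of 26 lower for IL-1b (11.8%) and 3 of 26 lower for PDGF-DD (12.4%). Between the vehicles it gave 7 of 27 higher (12.5%) and 2 lower (13.8%). In the difference 9 of 27 were higher (16.8%) and 2 lower (16.1%). Quantile normalization, the deposited scale and the mean of probe sets kept these counts within 1.5 times. The members' medians moved by less than 0.32, the median absolute log2 ratio of all genes between the vehicles, but with the other vehicle as control both changed sign, to -0.097 for IL-1b and 0.047 for PDGF-DD. Counts of members with both PDGF-DD pair arrays higher fell to 4 of 23 with the floor at the 50th percentile, 17.4% against 20.3% of all genes. The cause of these changes was not tested, apart from the fewer genes measured with a higher floor. No paired analysis was possible because each group has 1 array. Signals close to the floor limit what can be said of Irf8, Ifih1, Usp18, Bst2, Mx1, Mx2 and Ifit1.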

Other observations

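The values here were picked after they were seen and carry no explanation. The enzymes that attach and remove Isg15 did not share a pattern: Uba7, which activates Isg15, had intensities of 49, 57.1, 54.7 and 66.2 in the order IL-1b control, IL-1b, PDGF-DD control, PDGF-DD, whereas Ube2l6 had 90.1, 656, 446 and 401 and Usp18 had 31.6, 43.6, 47.8 and 125. Ube2l6 was low on the IL-1b control alone, and Usp18 was high with PDGF-DD alone.

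The immunity-related GTPases, which attack vacuoles of intracellular microbes, were highest on the PDGF-DD control: Igtp had 147, 132, 210.3 and 137, Irgm2 had 168, 143, 218 and 173 and Irgm had 83.6, 63.7, 119.9 and 99.1. Each was lower with IL-1b than with either vehicle and lower with PDGF-DD than with its own vehicle, by less than 2-fold in every case.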
